A study of Oryza sativa with 6 samples.

Results

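The auxin response factors (ARFs) and the Aux/IAA proteins of rice (Oryza sativa) were examined in young panicles of 2 near-isogenic lines. The 56 genes, OsARF1 to OsARF25 and OsIAA1 to OsIAA31, were chosen by a list of locus identifiers with their names, not by measured values. Earlier results of these data were known when that list was chosen. Of the 56 genes, 55 have a row among the 46732 loci of the expression table, 25 ARF and 30 Aux/IAA genes. OsIAA5 was not analysed here. ARFs bind auxin response elements in promoters and activate or repress the genes next to them. Aux/IAA proteins bind ARFs and hold those genes down, and auxin brings about their destruction by joining them to TIR1/AFB receptors. Many Aux/IAA genes are themselves switched on by auxin, and in grasses the hormone acts in spikelet formation and in the growth of the hull that bounds the grain.

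The lines were NIL-qigl1HD385 and NIL-qIGL1NIP, a pair that carry HD385 or NIP alleles of the grain length locus qIGL1, and the study compared them to find genes expressed differently between the alleles. Each line gave 3 RNA-seq libraries from panicles of 8 to 10 cm. Both are labelled wild type, and no treatment, plant age, transgene or introgressed chromosome segment is named. Whether replicates were separate plants is not stated, so the p-values reflect only how much these libraries varied, which could be technical variation.

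Expression was given as RPKM, reads scaled to the length of the gene model and to the total of the library, which allows levels of different genes to be compared. Library totals recovered from these values lay between 43536754 and 52466060 reads. NIL-qigl1HD385 replicate 2 and NIL-qIGL1NIP replicate 3 stood apart: of the 23181 loci tested, NIL-qigl1HD385 replicate 2 held the lowest of the 6 values in 31.9% and NIL-qIGL1NIP replicate 3 in 34.8%. The tissue label was not checked against marker genes, because the table pairs no identifier with a name. A panicle is a mixture of cells, so fewer cells of a type and less RNA per cell cannot be told apart in any value below.

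No ARF or Aux/IAA gene passed the test between the lines. A locus was tested where its mean over the 6 libraries was at least 0.5 RPKM, on the log2(RPKM + 0.5) scale with limma, and called at an adjusted p under 0.05. Of the 51 genes tested, 23 ARF and 28 Aux/IAA, 0 were called, beside 0.733% of all 23181 tested loci. With so few calls among all loci, a count of 0 is no result about these genes. Without adjustment, 13 of the 51 had a p under 0.05 (9 higher and 4 lower in NIL-qigl1HD385), which is 25.5%, against 17.0% of all tested loci (9.79% higher and 7.20% lower). The limma voom fit on recovered reads also called 0 and also gave 13 without adjustment. For 17 of the 51 the libraries of the lines did not overlap, 12 higher and 5 lower in NIL-qigl1HD385, which is 33.3% against 26.5% of all tested loci (16.2% higher and 10.3% lower).

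On the log2(RPKM + 0.5) scale, most intervals were narrow. For 43 of the 51 genes the 95% interval of the log2 change lay within a 2-fold change in either direction, and this held for 22 of 23 ARF and 21 of 28 Aux/IAA genes, against 78.4% of all tested loci. The exceptions were OsARF11, OsIAA4, OsIAA6, OsIAA7, OsIAA9, OsIAA12, OsIAA14 and OsIAA20. The pseudocount of 0.5 narrows the intervals of low genes: with a pseudocount of 0.1, 39 of the 51 intervals lay within 2-fold (70% of all tested loci), and with voom 38 did (68.2%). OsIAA11, OsIAA15, OsIAA22 and OsIAA28 were also outside in both of these fits, and OsIAA1 with voom. With 1 library left out, 35 to 45 of the 51 lay within 2-fold. On the log2(RPKM + 0.5) scale with all 6 libraries, OsIAA20 alone had an estimate past 2-fold, beside 3.55% of all tested loci. OsIAA9 was also past it with a pseudocount of 0.1 and with voom. Without NIL-qigl1HD385 replicate 1, OsIAA6 and OsIAA12 were also past it (5.22% of all tested loci), as was OsIAA6 without NIL-qIGL1NIP replicate 3 (4.03%). Without NIL-qigl1HD385 replicate 2, 0 genes were (2.67%). The median log2 change was 0.01 for the ARF genes and 0.14 for the Aux/IAA genes, beside 0.02 for all tested loci. The ARF median was -0.02 with median-ratio scaling of the libraries, and the Aux/IAA median was then 0.11. An adjusted p above 0.05 does not show that a gene has the same level in both lines.

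**Figure D1:**
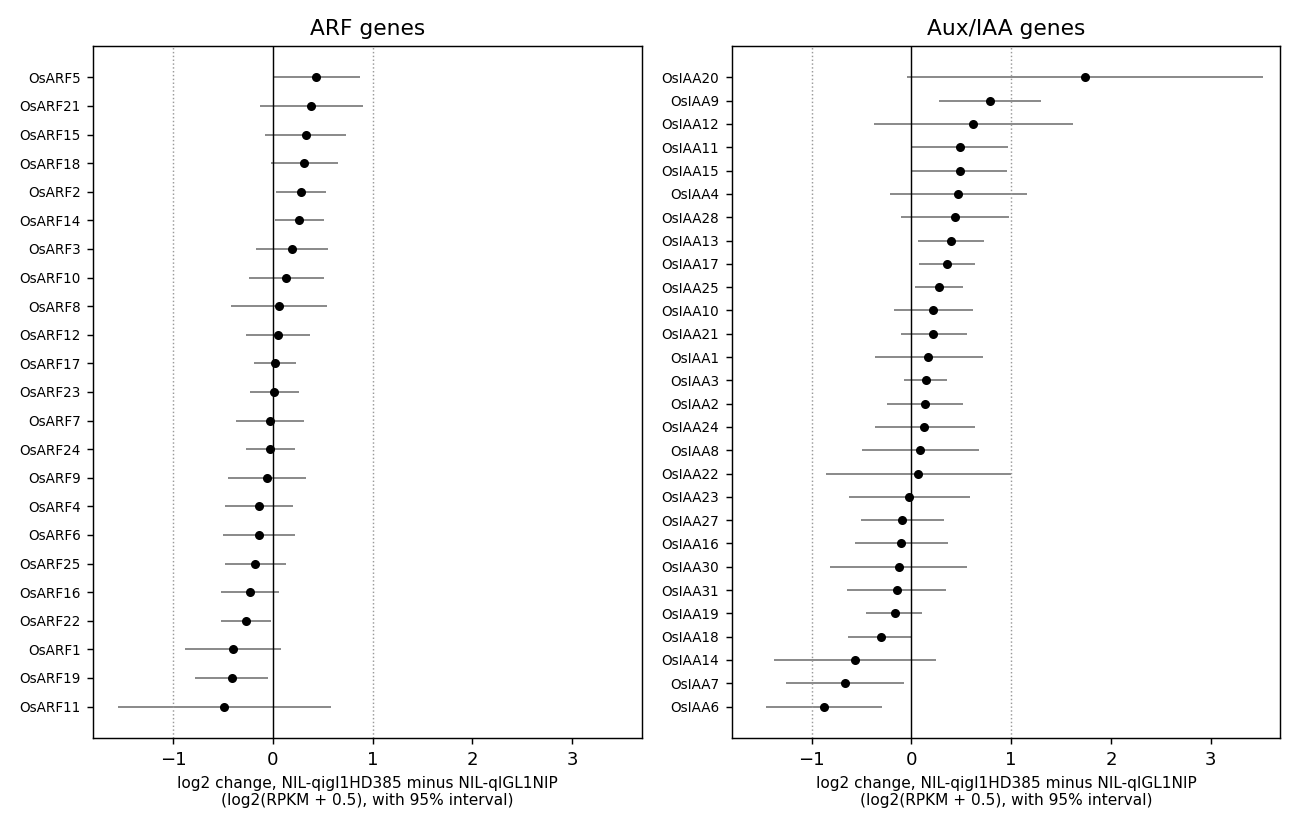
Log2 change of the 23 tested ARF genes (left) and 28 tested Aux/IAA genes (right), NIL-qigl1HD385 minus NIL-qIGL1NIP, on the log2(RPKM + 0.5) scale. Points are limma estimates from 3 libraries per line, lines are 95% intervals without correction for multiple tests, and dotted lines mark a 2-fold change. The ARF estimates lie between -0.49 and 0.43, and OsIAA20, at 1.74, has the widest interval.

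Most ARF genes were expressed at similar, moderate levels. Of 25, 18 had a mean between 10 and 100 RPKM over the 6 libraries, 5 between 1 and 10 RPKM, and 2 lay under 0.5 RPKM. The median ARF mean was 16.9 RPKM. Summed over the family, ARF levels were 514, 470 and 502 RPKM in NIL-qigl1HD385 and 544, 514 and 471 RPKM in NIL-qIGL1NIP. The ranges of these sums overlapped.

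**Figure D2:**
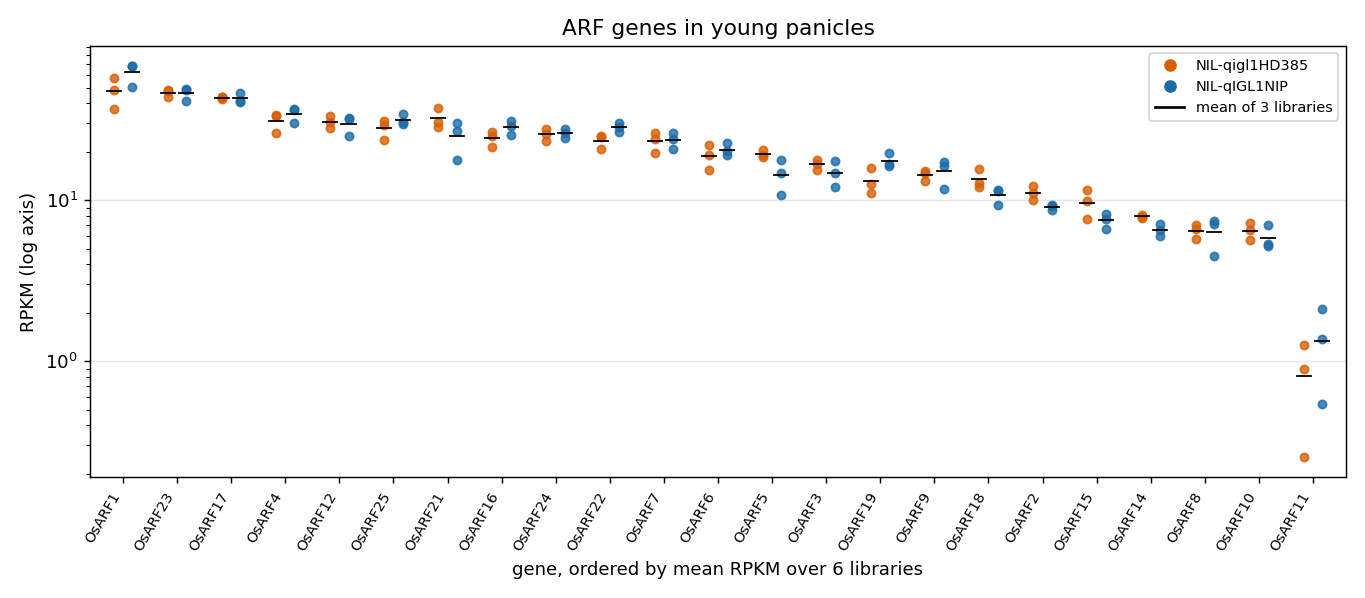
RPKM (log axis) of the 23 tested ARF genes in each of 6 libraries, NIL-qigl1HD385 on the left of each pair and NIL-qIGL1NIP on the right, with black bars for the mean of 3 libraries. Levels decline gradually from OsARF1 at a mean of 54.9 RPKM to OsARF10 at 6.15 RPKM, and OsARF11 lies apart at 1.07 RPKM.

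The highest ARF was OsARF1 (LOC_Os01g13520), with 57.3, 36.7 and 48.2 RPKM in NIL-qigl1HD385 against 67.9, 50.6 and 68.7 RPKM in NIL-qIGL1NIP. The values of the lines overlapped, with a log2 change of -0.40 (SE 0.20) at an adjusted p of 0.358 in limma. OsARF23 (LOC_Os11g32110), an ARF known to pair with OsARF24 in the control of the actin regulator gene RMD, had 48.4, 43.9 and 47.8 RPKM in NIL-qigl1HD385 against 49.3, 48.1 and 41.6 RPKM in NIL-qIGL1NIP. Its log2 change was 0.01 with a 95% interval of -0.23 to 0.26, among the narrowest of the family. OsARF24 (LOC_Os12g29520) was lower than OsARF23 in every library, at 25.7 ± 2.21 RPKM on average in NIL-qigl1HD385 against 26.1 ± 1.68 RPKM in NIL-qIGL1NIP (SD, n = 3 each).

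Of the 9 ARFs with the glutamine-rich middle region that marks activators, 0 were called. Without adjustment, and beside 17.0% of all tested loci, 2 of these 9 ARFs had a p under 0.05 in limma, 1 in each direction. Their median log2 change was -0.14, against 0.02 for all tested loci. They made up 42.4, 43.2 and 42.2% of the summed ARF level in NIL-qigl1HD385 and 41.4, 43.1 and 40.1% in NIL-qIGL1NIP, with overlapping ranges. OsARF5 (LOC_Os02g04810) had 18.5, 20.4 and 19.2 RPKM in NIL-qigl1HD385 against 14.8, 17.7 and 10.8 RPKM in NIL-qIGL1NIP. All 3 NIL-qigl1HD385 libraries were above the NIL-qIGL1NIP ones, and the log2 change of 0.43 (SE 0.18) had an unadjusted p of 0.049 and an adjusted p of 0.291 in limma. Without NIL-qIGL1NIP replicate 3, the lowest library, its log2 change was 0.25, and without NIL-qIGL1NIP replicate 2 it was 0.59.

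OsARF19 (LOC_Os06g48950), an activator known for its part in leaf angle, had the opposite order. It had 15.9, 12.6 and 11.1 RPKM in NIL-qigl1HD385 against 16.9, 16.3 and 19.6 RPKM in NIL-qIGL1NIP. The lines did not overlap, though NIL-qigl1HD385 replicate 1 lay close to the lowest NIL-qIGL1NIP library. The log2 change was -0.41 (SE 0.15), with an unadjusted p of 0.033 and an adjusted p of 0.250 in limma. OsARF21 (LOC_Os08g40900), whose RefSeq name OsARF7b pairs it with OsARF19 (OsARF7a), had 28.5, 37.4 and 30.7 RPKM in NIL-qigl1HD385 against 27.1, 30.1 and 17.8 RPKM in NIL-qIGL1NIP. The values overlapped, and the log2 change was 0.38 with a 95% interval of -0.13 to 0.90. It was 0.16 without NIL-qIGL1NIP replicate 3 and 0.53 without NIL-qIGL1NIP replicate 2.

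OsARF16 (LOC_Os06g09660), which acts in the response to phosphate starvation, had 24.3 ± 2.62 RPKM on average in NIL-qigl1HD385 against 28.6 ± 2.77 RPKM in NIL-qIGL1NIP (SD, n = 3 each). Its log2 change was -0.23 (95% interval -0.52 to 0.06). OsARF11 (LOC_Os04g56850), studied in rice for its part in plant architecture, was the lowest activator. It had 0.9, 0.252 and 1.26 RPKM in NIL-qigl1HD385, from 167, 48 and 224 reads, against 2.12, 1.37 and 0.541 RPKM in NIL-qIGL1NIP, from 438, 256 and 93 reads. NIL-qigl1HD385 replicate 2 and NIL-qIGL1NIP replicate 3 were the lowest, the lines overlapped, and the log2 change of -0.49 had a 95% interval of -1.55 to 0.58, the widest of the ARF genes.

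The remaining 4 activators, OsARF6, OsARF12, OsARF17 and OsARF25, are the ARFs whose transcripts are cleaved under the guidance of miR167. None had an unadjusted p under 0.05, and their log2 changes lay between -0.18 and 0.05. OsARF6 (LOC_Os02g06910) belongs to a miR167 pathway of rice grain length. It had 22.1, 15.4 and 19 RPKM in NIL-qigl1HD385 against 22.7, 20.1 and 19.1 RPKM in NIL-qIGL1NIP. Those values overlapped, and the log2 change of -0.14 had a 95% interval of -0.50 to 0.22 (adjusted p = 0.671 in limma).

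OsARF25 (LOC_Os12g41950) had 29.3, 23.7 and 31 RPKM in NIL-qigl1HD385 against 34.3, 30.7 and 29.9 RPKM in NIL-qIGL1NIP, with overlap and a log2 change of -0.18 (95% interval -0.48 to 0.13). OsARF17 (LOC_Os06g46410), one of the steadiest members, had 42.8, 43.7 and 43.9 RPKM against 46.5, 41.6 and 40.7 RPKM in the same order of lines. OsARF12 (LOC_Os04g57610), which is known to promote root elongation, had 33.2, 28.2 and 30.8 RPKM in NIL-qigl1HD385 against 31.9, 32.6 and 24.9 RPKM in NIL-qIGL1NIP, with overlap. For OsARF17 the 95% interval of the log2 change, -0.19 to 0.23, was the narrowest of the miR167 group.

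The ETTIN-like ARFs, targets of the trans-acting small RNAs called ta-siARFs, lay on one side of zero. The log2 changes of OsARF2, OsARF3, OsARF14 and OsARF15 were between 0.19 and 0.33 with a median of 0.27, and 0 of 4 were called, while 52.9% of all tested loci had a log2 change above zero. NIL-qIGL1NIP replicate 3 was the lowest of the 6 libraries in all 4 genes. Without it the log2 changes were 0.25 for OsARF2, 0.05 for OsARF3, 0.20 for OsARF14 and 0.25 for OsARF15, and without NIL-qigl1HD385 replicate 2 that of OsARF15 was 0.20. ETTIN genes of Arabidopsis act in the patterning of floral organs, and RefSeq lists OsARF15 as OsETTIN1 and OsARF2 as OsETTIN2. OsARF2 (LOC_Os01g48060) had 10.1, 11.1 and 12.2 RPKM in NIL-qigl1HD385 against 9.21, 9.37 and 8.65 RPKM in NIL-qIGL1NIP. Its lines did not overlap (log2 change 0.28, SE 0.10, unadjusted p = 0.033, adjusted p = 0.252 in limma).

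OsARF14 (LOC_Os05g43920) had 7.89, 8.12 and 7.77 RPKM in NIL-qigl1HD385 against 7.09, 6.55 and 5.99 RPKM in NIL-qIGL1NIP. Here too every NIL-qigl1HD385 library was above every NIL-qIGL1NIP library, by a log2 change of 0.26 (SE 0.10, unadjusted p = 0.041, adjusted p = 0.271 in limma). OsARF15 (LOC_Os05g48870) had 7.59, 11.5 and 9.83 RPKM against 8.26, 7.59 and 6.65 RPKM in the same order, and OsARF3 (LOC_Os01g54990) had 15.5, 17.8 and 16.8 RPKM against 17.5, 14.7 and 12 RPKM. Both overlapped between the lines. Summed over the 4 genes, the level was 41.1, 48.5 and 46.6 RPKM in NIL-qigl1HD385 and 42.1, 38.2 and 33.3 RPKM in NIL-qIGL1NIP, so that NIL-qigl1HD385 replicate 1 lay inside the NIL-qIGL1NIP range.

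The ARFs targeted by miR160 went both ways. Of OsARF8, OsARF10, OsARF13, OsARF18 and OsARF22, 4 were tested and 0 called, with log2 changes from -0.27 to 0.31. OsARF22 (LOC_Os10g33940) had 24.6, 24.9 and 20.9 RPKM in NIL-qigl1HD385 against 26.7, 28.4 and 30 RPKM in NIL-qIGL1NIP, without overlap (log2 change -0.27, SE 0.10, unadjusted p = 0.040, adjusted p = 0.271 in limma). OsARF18 (LOC_Os06g47150) had 12.1, 15.6 and 12.8 RPKM in NIL-qigl1HD385 against 11.4, 11.5 and 9.31 RPKM in NIL-qIGL1NIP. This was also without overlap, with a log2 change of 0.31 whose 95% interval of -0.02 to 0.65 included zero. The summed level of these 5 genes was 50.2 ± 3.61 RPKM on average in NIL-qigl1HD385 against 51.7 ± 1.06 RPKM in NIL-qIGL1NIP (SD, n = 3 each).

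Among the other ARFs, OsARF4 (LOC_Os01g70270) is known as a partner of a GSK3-like kinase that restrains rice grain size. It had 33.9, 26.2 and 33.5 RPKM in NIL-qigl1HD385 against 37, 36.3 and 30 RPKM in NIL-qIGL1NIP. The lines overlapped, and the log2 change was -0.14 with a 95% interval of -0.48 to 0.20 (adjusted p = 0.639 in limma). OsARF7 (LOC_Os02g35140) and OsARF9 (LOC_Os04g36054) had log2 changes of -0.03 and -0.06, and OsARF8 (LOC_Os02g41800) and OsARF10 (LOC_Os04g43910) of 0.06 and 0.13, each with overlapping values.

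OsARF13 and OsARF20 fell under the level tested. OsARF13 (LOC_Os04g59430) had 37, 40 and 28 reads in NIL-qigl1HD385 and 65, 34 and 46 reads in NIL-qIGL1NIP, means of 0.351 and 0.473 RPKM. OsARF20 (LOC_Os07g08520) had 0 reads in the 3 NIL-qigl1HD385 libraries and 3, 0 and 2 reads in those of NIL-qIGL1NIP. A count of 0 in 140352790 reads allows a level of up to 3 reads in that total, so no difference was detectable at this depth.

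The Aux/IAA genes spanned a far wider range than the ARFs. Of 30, 4 had a mean of at least 100 RPKM, 9 lay between 10 and 100, 12 between 1 and 10, 3 between 0.5 and 1, and 2 under 0.5 RPKM. OsIAA21 (LOC_Os06g22870) alone had 960, 1152 and 1021 RPKM in NIL-qigl1HD385 against 908, 916 and 857 RPKM in NIL-qIGL1NIP, and its mean of 969 RPKM ranked 23 among all 46732 loci. The lines did not overlap, but the log2 change of 0.22 (SE 0.14) had an unadjusted p of 0.159 and an adjusted p of 0.458 in limma. In limma the variance of a gene is drawn toward that of loci at a similar level, so this p does not rest on its own 6 values alone. The unadjusted p was 0.095 without the variance trend, 0.077 with voom and 0.420 without the filter on level. OsIAA21 supplied 50.7, 54.5 and 50.8% of the summed Aux/IAA level in NIL-qigl1HD385 and 49.4, 50.5 and 52.1% in NIL-qIGL1NIP.

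**Figure D3:**
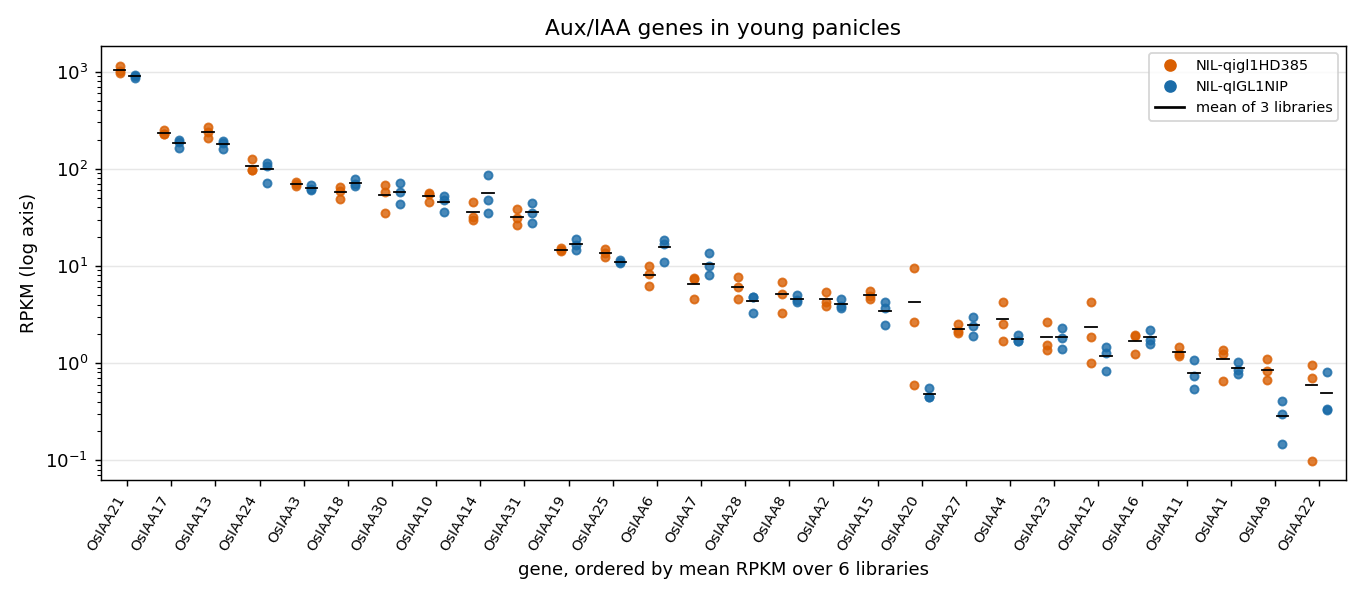
RPKM (log axis) of the 28 tested Aux/IAA genes in each of 6 libraries, NIL-qigl1HD385 on the left of each pair and NIL-qIGL1NIP on the right, with black bars for the mean of 3 libraries. OsIAA21, at a mean of 969 RPKM, stands above OsIAA17 and OsIAA13 at 209 and 208 RPKM, and OsIAA22 is lowest at 0.543 RPKM.

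The summed Aux/IAA level was 1893, 2116 and 2012 RPKM in NIL-qigl1HD385 and 1839, 1816 and 1643 RPKM in NIL-qIGL1NIP. The sums did not overlap, although NIL-qigl1HD385 replicate 1 and NIL-qIGL1NIP replicate 1 lay close. Without OsIAA21 they were 933, 964 and 991 RPKM in NIL-qigl1HD385 and 930, 900 and 786 RPKM in NIL-qIGL1NIP. Over the 28 tested genes, 18 estimates were above zero and 10 below, against 52.9% of all tested loci above zero.

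**Figure D4:**
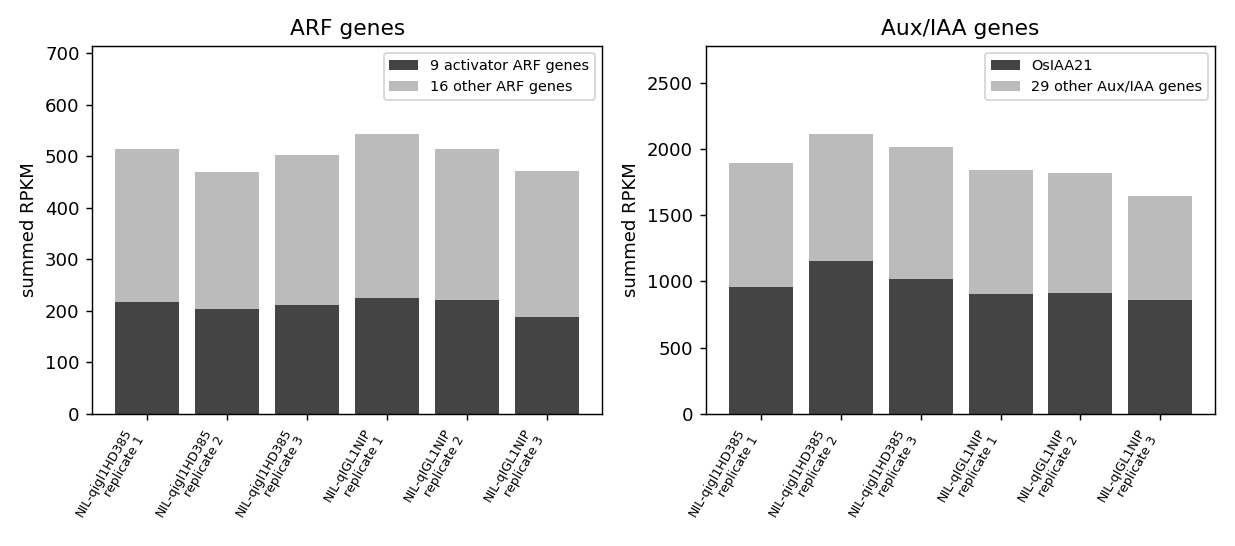
Summed RPKM per library of the 25 ARF genes (left, the 9 activators dark) and of the 30 Aux/IAA genes (right, OsIAA21 dark), NIL-qigl1HD385 libraries first. ARF sums range from 470 to 544 RPKM and overlap between the lines, and Aux/IAA sums range from 1643 to 2116 RPKM.

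The next most abundant Aux/IAA genes were OsIAA17 and OsIAA13. OsIAA17 (LOC_Os05g14180) had 226, 249 and 228 RPKM in NIL-qigl1HD385 against 197, 190 and 162 RPKM in NIL-qIGL1NIP. Every NIL-qigl1HD385 library was above the NIL-qIGL1NIP ones, by a log2 change of 0.36 (SE 0.12, unadjusted p = 0.019, adjusted p = 0.208 in limma). OsIAA13 (LOC_Os03g53150), known for its part in lateral root initiation, had 206, 267 and 240 RPKM in NIL-qigl1HD385 against 185, 192 and 160 RPKM in NIL-qIGL1NIP. These values also did not overlap (log2 change 0.40, SE 0.14, unadjusted p = 0.024, adjusted p = 0.222 in limma).

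OsIAA24 (LOC_Os07g08460) had 98.2, 96.6 and 125 RPKM in NIL-qigl1HD385 against 116, 108 and 71.7 RPKM in NIL-qIGL1NIP, with overlap and a log2 change of 0.13. OsIAA3 (LOC_Os01g13030) had 70.3, 72.6 and 66.7 RPKM in NIL-qigl1HD385 against 61.3, 67.3 and 60.7 RPKM in NIL-qIGL1NIP, with overlap and a log2 change of 0.15. OsIAA10 (LOC_Os02g57250), known as a target of a rice dwarf virus protein, had 52.3 ± 5.78 RPKM on average in NIL-qigl1HD385 against 45.3 ± 8.58 RPKM in NIL-qIGL1NIP (SD, n = 3 each). OsIAA18 (LOC_Os05g44810) went the other way, with 65.5, 48.7 and 59 RPKM in NIL-qigl1HD385 against 66, 78.3 and 70.2 RPKM in NIL-qIGL1NIP. The OsIAA18 lines were separated by less than 1 RPKM, and the log2 change of -0.31 (SE 0.14) had an adjusted p of 0.310 in limma.

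The Aux/IAA gene with the smallest adjusted p on the lower side was OsIAA6 (LOC_Os01g53880), which is known for effects on tiller growth and drought tolerance. It had 9.94, 6.19 and 8.35 RPKM in NIL-qigl1HD385 against 17, 18.4 and 11.1 RPKM in NIL-qIGL1NIP. All NIL-qigl1HD385 libraries were below all NIL-qIGL1NIP libraries, and the fitted ratio on the RPKM + 0.5 scale was 0.544, with a 95% interval of 0.365 to 0.812. The log2 change was -0.88 (SE 0.24, unadjusted p = 0.009, adjusted p = 0.164 in limma). OsIAA7 (LOC_Os02g13520) had 7.5, 4.59 and 7.35 RPKM in NIL-qigl1HD385 against 13.5, 10.1 and 8.09 RPKM in NIL-qIGL1NIP, again without overlap (log2 change -0.67, SE 0.25, unadjusted p = 0.033, adjusted p = 0.252 in limma). In both genes NIL-qigl1HD385 replicate 2 was lowest of the 6 libraries, and without it the log2 changes were -0.70 and -0.45. Without NIL-qIGL1NIP replicate 3 they were larger in size, at -1.09 and -0.84.

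OsIAA9 (LOC_Os02g56120), a rice gene studied for effects on gravitropism, was the least abundant gene with an unadjusted p under 0.05. It had 0.82, 1.09 and 0.662 RPKM in NIL-qigl1HD385, from 44, 60 and 34 reads, against 0.301, 0.148 and 0.403 RPKM in NIL-qIGL1NIP, from 18, 8 and 20 reads. The lines did not overlap, and the log2 change was 0.79 (SE 0.21, unadjusted p = 0.009, adjusted p = 0.159 in limma), the smallest adjusted p of the 51. With a NIL-qIGL1NIP mean of 0.284 RPKM, OsIAA9 reached the tested level only through NIL-qigl1HD385, which favours an estimate above zero. Without the filter on level its adjusted p was 0.209 in limma. The pseudocount of 0.5 is close to these levels and holds the estimate down: with 0.1 the log2 change was 1.35 (adjusted p = 0.175).

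OsIAA20 (LOC_Os06g07040) had the largest estimate and the least certain one. It had 2.66, 9.57 and 0.6 RPKM in NIL-qigl1HD385 (65, 240 and 14 reads) against 0.551, 0.448 and 0.443 RPKM in NIL-qIGL1NIP (15, 11 and 10 reads). The NIL-qIGL1NIP libraries were nearly alike, and NIL-qigl1HD385 replicate 3 lay just above them while replicate 2 was far higher. With a NIL-qIGL1NIP mean of 0.481 RPKM, OsIAA20 too reached the tested level only through NIL-qigl1HD385. The log2 change of 1.74 had a 95% interval of -0.04 to 3.52 and an adjusted p of 0.302 in limma. It was 0.93 without NIL-qigl1HD385 replicate 2 and 2.53 without replicate 3.

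**Figure D5:**
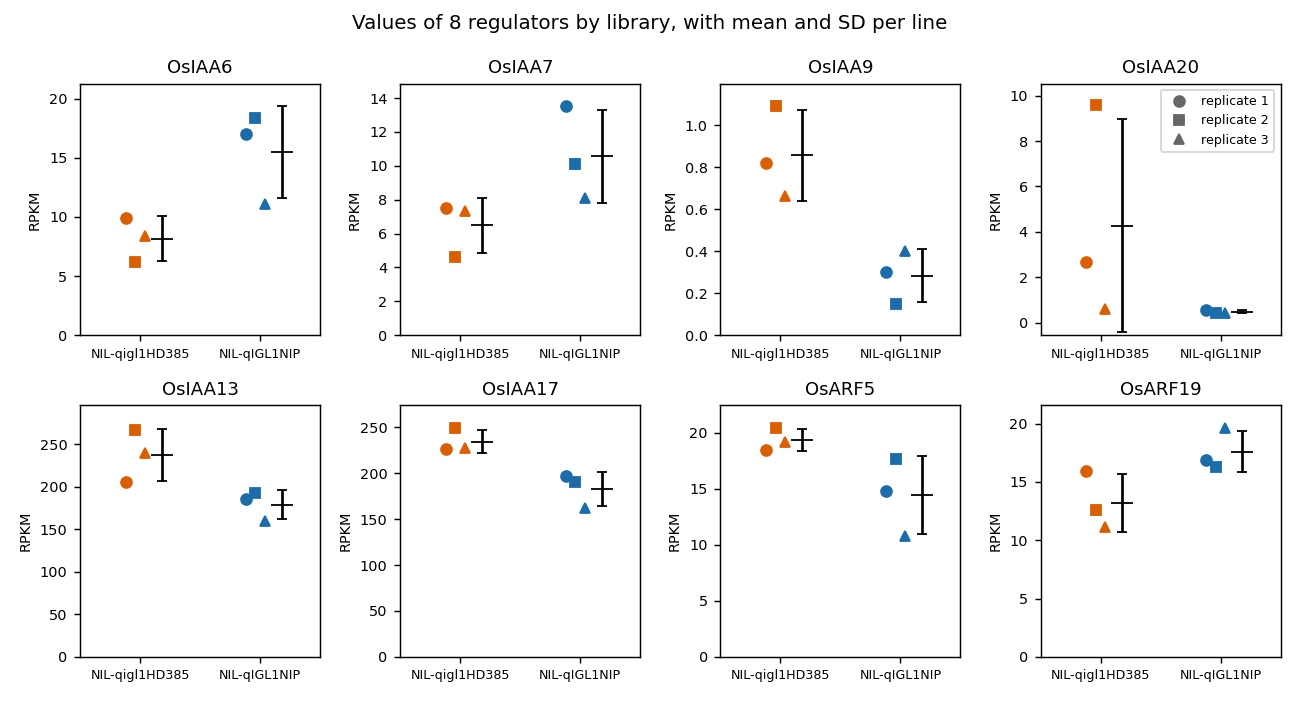
RPKM of 8 regulators in each library, NIL-qigl1HD385 on the left of each panel and NIL-qIGL1NIP on the right, with marker shapes for replicates and black bars for the mean and SD of 3 libraries. The genes shown have an unadjusted p under 0.05 in limma, or the largest estimate (OsIAA20). That the 2 lines do not overlap in any of the 8 panels therefore goes with the choice of genes. Of all 51 tested genes, 17 did not overlap (33.3%), beside 26.5% of all tested loci. OsIAA6, OsIAA7 and OsARF19 are lower in NIL-qigl1HD385, and OsIAA20 rests on replicates 1 and 2, at 2.66 and 9.57 RPKM.

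A further 3 Aux/IAA genes had an unadjusted p under 0.05, each higher in NIL-qigl1HD385 without overlap. OsIAA25 (LOC_Os08g01780) had 12.3, 14.8 and 13.5 RPKM in NIL-qigl1HD385 against 11.4, 11 and 10.7 RPKM in NIL-qIGL1NIP, a log2 change of 0.28 (adjusted p = 0.238 in limma). OsIAA15 (LOC_Os05g08570) had 4.53, 5.54 and 4.86 RPKM in NIL-qigl1HD385 against 4.26, 3.68 and 2.48 RPKM in NIL-qIGL1NIP, a log2 change of 0.49 (adjusted p = 0.285 in limma). Without NIL-qIGL1NIP replicate 3, its lowest library, that change was 0.29, and without NIL-qIGL1NIP replicate 1 it was 0.63. OsIAA11 (LOC_Os03g43400), another regulator of lateral roots, had 1.18, 1.46 and 1.23 RPKM in NIL-qigl1HD385 against 0.546, 0.736 and 1.08 RPKM in NIL-qIGL1NIP, a log2 change of 0.49 (adjusted p = 0.285 in limma).

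Some Aux/IAA genes neighbour each other by identifier. OsIAA12 (LOC_Os03g43410), next to OsIAA11 on chromosome 3, had 1.01, 4.23 and 1.87 RPKM in NIL-qigl1HD385 against 1.46, 1.27 and 0.838 RPKM in NIL-qIGL1NIP. NIL-qigl1HD385 replicate 2 was again the highest, and the log2 change of 0.62 had a 95% interval of -0.38 to 1.62. It was 0.18 without NIL-qigl1HD385 replicate 2 and 1.00 without NIL-qigl1HD385 replicate 1. On chromosome 11, OsIAA27 (LOC_Os11g11410) and OsIAA28 (LOC_Os11g11420) had means of 2.34 RPKM and 5.2 RPKM over the 6 libraries, while OsIAA29 (LOC_Os11g11430), which lies beside them, had 0, 0 and 2 reads in NIL-qigl1HD385 and 3, 0 and 6 reads in NIL-qIGL1NIP. On chromosome 12, OsIAA30 (LOC_Os12g40890) and OsIAA31 (LOC_Os12g40900) were both abundant, and their sum was 88.1, 61.4 and 106 RPKM in NIL-qigl1HD385 and 116, 92.9 and 70.7 RPKM in NIL-qIGL1NIP, with overlap. Counting may divide the reads of similar neighbouring copies between them, so the share of each is less certain than the sum.

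OsIAA14 (LOC_Os03g58350) had the largest coefficient of variation in NIL-qIGL1NIP among members above 10 RPKM, 46.9%, with 45.8, 31.9 and 30 RPKM in NIL-qigl1HD385 against 47.9, 35 and 85.8 RPKM in NIL-qIGL1NIP. Its values overlapped, NIL-qIGL1NIP replicate 3 was far the highest, and the log2 change was -0.57 with it and -0.21 without it. Without NIL-qIGL1NIP replicate 2 instead, the change was -0.85. OsIAA4 (LOC_Os01g18360), known to cause dwarfing when overexpressed, had 2.52, 4.28 and 1.67 RPKM in NIL-qigl1HD385 against 1.68, 1.95 and 1.7 RPKM in NIL-qIGL1NIP, with overlap. OsIAA23 (LOC_Os06g39590), needed for the quiescent centre of the root, had 1.84 ± 0.682 RPKM on average in NIL-qigl1HD385 against 1.84 ± 0.471 RPKM in NIL-qIGL1NIP (SD, n = 3 each). The tested genes not named so far, OsIAA1 (LOC_Os01g08320), OsIAA2 (LOC_Os01g09450), OsIAA8 (LOC_Os02g49160), OsIAA16 (LOC_Os05g09480), OsIAA19 (LOC_Os05g48590) and OsIAA22 (LOC_Os06g24850), had overlapping values and log2 changes between -0.17 and 0.17. OsIAA26 (LOC_Os09g35870) had 0 reads in all 6 libraries, which allows a level of up to 3 reads in the 140352790 reads of NIL-qigl1HD385 and in the 143296783 reads of NIL-qIGL1NIP.

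The count of genes with an unadjusted p under 0.05 varied with the library left out, as it did for all tested loci. NIL-qigl1HD385 replicate 2 held the highest of the 6 values in 16 of 28 tested Aux/IAA genes, 57.1%, beside 19.7% of all tested loci, and in 7 of 23 ARF genes. The same library held the lowest value in 8 of the 28 and in 8 of the 23, beside 31.9% of all tested loci. NIL-qIGL1NIP replicate 3 held the lowest in 13 of the 28 and in 12 of the 23 ARF genes, beside 34.8% of all tested loci. Leaving out NIL-qigl1HD385 replicate 2 left 4 genes with an unadjusted p under 0.05 (12.2% of all tested loci), and leaving out its replicate 3 left 6 (13.8%). Leaving out NIL-qIGL1NIP replicate 1 left 5 (11.8%), its replicate 2 left 8 (14.8%) and its replicate 3 left 8 (15.5%), while leaving out NIL-qigl1HD385 replicate 1 still gave 13 (15.2%). OsIAA6, OsIAA9 and OsIAA17 kept an unadjusted p under 0.05 whichever library was left out. Some of the others lost it with little change in the estimate: without NIL-qigl1HD385 replicate 2 the log2 change of OsARF2 was 0.28 and that of OsARF14 was 0.25. Scaling also changed the genes. Median-ratio factors were smallest for NIL-qigl1HD385 replicate 2 (0.959) and NIL-qIGL1NIP replicate 3 (0.932). With that scaling 12 genes had an unadjusted p under 0.05 in limma (17.3% of all tested loci). OsIAA11, OsIAA25 and OsARF22 dropped out, and OsARF16 and OsIAA18 came in.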

How the data were processed

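Stranded mRNA libraries of young panicle RNA were read from both ends, per the labels' protocols. The deposited table holds RPKM values computed by the authors. The submitters' processing notes name Trimmomatic 0.36, featureCounts, Subread 1.5.1 and edgeR 3.12.1 without roles. No aligner role, genome build or strand setting is given in the sources used here, so reads of overlapping or antisense genes may not be told apart.

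Whole reads and library totals were recovered from the RPKM steps in Python 3.11.15: 100.00% of values above 0 came out whole, within 0.003 reads plus 2e-08 of the value. For genes with few reads these are the smallest that fit. Floors cover counting error only.

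All 23181 loci with a mean of at least 0.5 RPKM were fitted in limma 3.58.1 (R 4.3.3), log2(RPKM + 0.5), variance trend, no covariate, two-sided, NIL-qigl1HD385 minus NIL-qIGL1NIP, with Benjamini-Hochberg adjustment over all of them. The pseudocount understates changes of low genes. The fit was tested on simulated data.

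Names come from the list of identifiers. RefSeq (assembly ASM3414082v1) lists 51 of the 56 names on the chromosome given by the identifier, and 0 of the table's identifiers. It also gives other numberings, such as OsARF2 for OsARF4, OsARF1 for OsARF23 and IAA1 for OsIAA13. Receptors and other auxin genes were therefore not analysed here, nor were sequences. The members, gene groups and tests were chosen with earlier results of these data known. Values in every library are given for members with an unadjusted p under 0.05, the 5 most abundant and the 5 with the largest change per family, and members known for grain or panicle growth, plus some others chosen after their values were seen. Alternatives were pseudocounts, filters, scalings, variance models, voom, a replicate block and leaving out each library.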

Additional observations from a re-analysis of the deposited data

How the results depend on the processing

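None of the tested ARF and Aux/IAA genes was called under any of the 16 alternatives, with a smallest adjusted p of 0.123 (limma). Over all loci, 94 were called with a mean RPKM of at least 2, 46 with the replicate number as a block, and 84 to 112 with 1 library left out, against 170. Replicate numbers are not said to pair the libraries, and libraries sharing a number had deviations that correlated at -0.28, -0.25 and -0.41. The block gave 8 of the 51 genes an unadjusted p under 0.05 in limma, which is 15.7%, beside 13.6% of all tested loci. Of 51 genes, 36 kept their sign in every alternative. Median-ratio scaling turned OsARF17 to -0.0091 and OsARF23 to -0.02, and OsIAA22 was at -0.0035 with a pseudocount of 0.1 and at -0.04 with voom. With 1 library left out, 15 genes near zero changed sign: the log2 change ranged from -0.07 to 0.12 for OsARF12, -0.02 to 0.08 for OsARF17, -0.06 to 0.06 for OsARF23, -0.08 to 0.04 for OsARF24, -0.12 to 0.09 for OsARF7, -0.15 to 0.18 for OsARF8, -0.23 to 0.04 for OsARF9, -0.18 to 0.06 for OsIAA16, -0.19 to 0.45 for OsIAA22, -0.25 to 0.13 for OsIAA23, -0.08 to 0.26 for OsIAA24, -0.22 to 0.04 for OsIAA27, -0.33 to 0.15 for OsIAA30, -0.32 to 0.02 for OsIAA31 and -0.14 to 0.34 for OsIAA8. The cause was not tested. OsARF13, OsARF20, OsIAA26 and OsIAA29 were left out of the main fit because their means lay under 0.5 RPKM. OsARF13 had 28 to 65 reads per library, more than the 2 to 21 reads of the tested OsIAA22, so depth alone did not exclude it. OsARF20 and OsIAA29 had at most 3 and 6 reads in a library. Without the filter 54 members were tested and 0 called.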
